A study of Homo sapiens with 8 samples.

Results

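The WNT pathway genes examined here are the ligands, their receptors and co-receptors, the secreted and membrane proteins that modulate them, and the cytoplasmic and nuclear components named by symbol. They were chosen by gene symbol, as the WNT, FZD, SFRP, DKK, RSPO, LGR, DVL and TCF7 families together with LRP5, LRP6, ROR1, ROR2, RYK, WIF1, KREMEN1, KREMEN2, AXIN1, AXIN2, APC, LEF1, RNF43, ZNRF3, NKD1, NKD2, NOTUM and TCF4. Of 68 gene symbols that fit this choice, 67 had a probeset assigned to them alone, by 68 probesets of the 33297 on the array, and TCF7 was not analysed here. TCF4 is included by its symbol. It encodes the E-box binding factor E2-2 and is not the WNT effector that is often called TCF-4, which is TCF7L2.

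WNT proteins are secreted, lipid-modified ligands. They bind Frizzled receptors, and with the co-receptors LRP5 or LRP6 they disable a cytoplasmic complex of AXIN, APC and the kinases GSK3 and CK1 that otherwise marks β-catenin for degradation, so that β-catenin can act on target genes through LEF1 and the TCF7 family. With ROR1, ROR2 or RYK they drive β-catenin-independent signalling, which acts on cell polarity and movement. DKK1 blocks LRP5 and LRP6, and SFRP proteins and WIF1 bind the ligands. R-spondins acting through LGR receptors keep the ubiquitin ligases RNF43 and ZNRF3 from removing Frizzled receptors. In the female reproductive tract, WNT signals take part in the development of the Müllerian duct and the ovary, and activating β-catenin mutations are typical of endometrioid rather than serous ovarian carcinoma.

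The 8 samples were RNA from spheroids, each hybridized to 1 Affymetrix Human Gene ST array, with 4 arrays of the cisplatin-resistant line OVCAR-8R and 4 arrays of its parental line OVCAR-8. The sample labels call the resistant line OVCAR-8C. It had been obtained from OVCAR-8, an ovarian adenocarcinoma cell line, by exposure to rising cisplatin concentrations of up to 5 μM and is described as resistant without drug, whereas OVCAR-8 had no such exposure. Both lines were kept in the same medium and grown to spheroids of about 300 μm in molds of 2% agarose. The comparison is therefore of a single selected line with its parent, and the titles count the arrays as biological replicates but do not give the step at which cultures or RNA were split. The p-values therefore rest on array spread that may be technical in part.

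Values are log2 of the RMA signal, and each difference is the mean of OVCAR-8R minus the mean of OVCAR-8 with the standard error (SE) of limma's fit over all probesets kept. A gene counts as called when its p, adjusted by Benjamini-Hochberg, is under 0.05 and its difference is 2-fold or more. Array medians were 6.68 to 6.73 for OVCAR-8R and 6.67 to 6.73 for OVCAR-8. Within OVCAR-8R, deviations from the mean correlated between arrays 1 and 3 (r = 0.427 over probesets) and between arrays 2 and 4 (r = 0.484). The split also reached OVCAR-8. Deviations of OVCAR-8 array 4 correlated with those of OVCAR-8R arrays 2 and 4 (r = 0.383 and 0.443). Those of OVCAR-8 array 2 correlated with OVCAR-8R arrays 1 and 3 (r = 0.353 and 0.276). For OVCAR-8 arrays 1 and 3 the correlations with OVCAR-8R arrays lay between -0.14 and 0.16. The sources used here do not say what sets these arrays apart. Among 6 measured epithelial marker genes 4 were called higher in OVCAR-8R, beside 8.37% of all 15931 genes tested. The 4 included the keratin gene KRT8, with means of 12.50 in OVCAR-8R against 9.54 in OVCAR-8. CDH1 and KRT19, the others, were not called, with differences of -0.23 and 0.08, and lay below the median signal in both lines. PAX8, a factor of Müllerian epithelium, had means of 10.28 in OVCAR-8R against 6.51 in OVCAR-8. Of the 8 ovarian and Müllerian genes measured, 3 were higher (PAX8, MSLN and FOLR1) and 1 was lower, beside 8.37% of all genes tested in each direction. The lower gene was MECOM, at 4.68 in OVCAR-8R against 7.12 in OVCAR-8. WT1 and EMX2 had differences of -0.86 and -0.69, under 2-fold. SOX17 was not called and lay above the median signal in both lines, at 7.11 in OVCAR-8R and 7.04 in OVCAR-8. MUC16, which encodes the ovarian tumor antigen CA125, lay below the median signal in both lines, at 5.74 in OVCAR-8R and 5.67 in OVCAR-8. None of 5 endothelial marker genes lay above the median signal in either line, and 2 of 4 leukocyte genes, among them PTPRC, lay in the lowest quartile in both. Of 6 fibroblast genes only DCN lay in the lowest quartile in both. PDGFRB of that list had means of 6.79 in OVCAR-8R, above the median signal, and 6.19 in OVCAR-8. The fibroblast marker COL1A1 was higher in OVCAR-8R, at 9.50 against 7.46 in OVCAR-8, as was the lysosomal gene CD68 of the leukocyte list, at 11.20 against 8.68, and their part in the results below was not tested.

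Of the 62 WNT pathway genes whose signal passed the filter on low values, 4 rose and 5 fell in OVCAR-8R, and 53 were not called. The higher genes were the DKK family genes DKK1 and DKK3, the receptor gene FZD2 and the R-spondin gene RSPO4. The lower genes were the receptor gene FZD3, the nuclear factor genes LEF1 and TCF4, the co-receptor gene ROR1 and LGR5, a receptor of R-spondins. Over all 15931 genes tested 16.7% were called, 8.37% in each direction, so that 9 of 62 is close to the background share. The called members ranged in size between 1.10 for RSPO4 and 5.38 for DKK1 on the log2 scale, and the median absolute difference of the 62 genes was 0.23, against 0.34 over all genes tested. Without the 2-fold threshold, an adjusted p under 0.05 was reached by 13 members with a higher mean, beside 27.6% of all genes, and by 15 with a lower mean, beside 30% of all genes, that is by 28 of 62 members beside 57.6%. The arrays of the lines did not overlap in 27 of 62 members, beside 56.8% of all genes. In RNA from whole spheroids, a change in the number of expressing cells and a change in RNA per cell cannot be told apart.

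**Figure D1:**
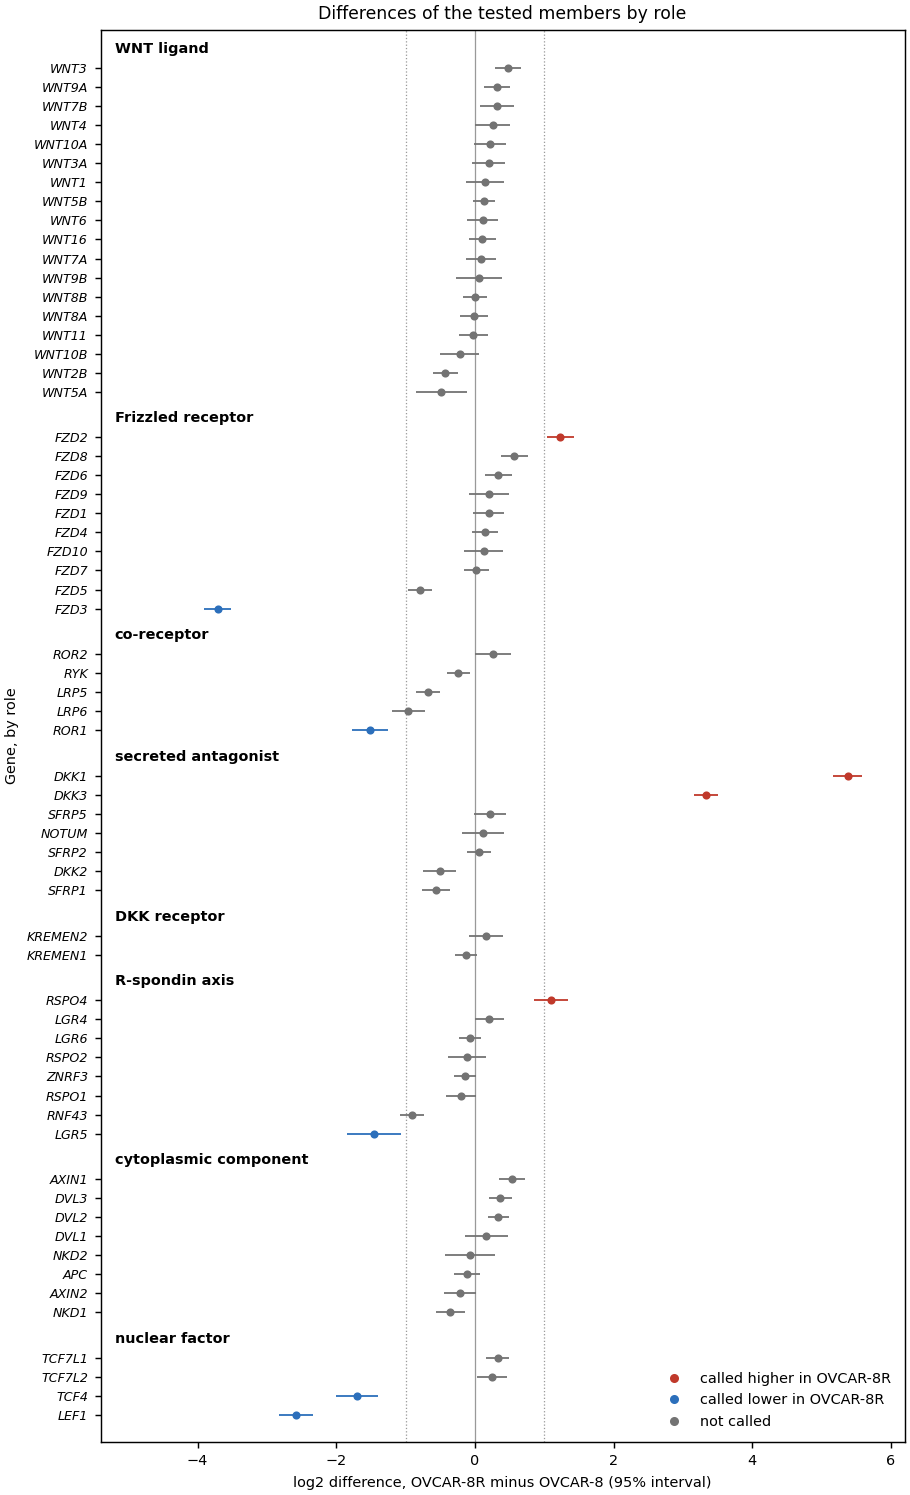
The log2 difference of OVCAR-8R minus OVCAR-8 for each of the 62 tested members, grouped by role, with its 95% interval from limma (n = 4 arrays per line). Dotted lines mark 2-fold, and the 9 called genes (red higher, blue lower) stand apart from ligands that all lie between -0.48 and 0.48.

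**Figure D2:**
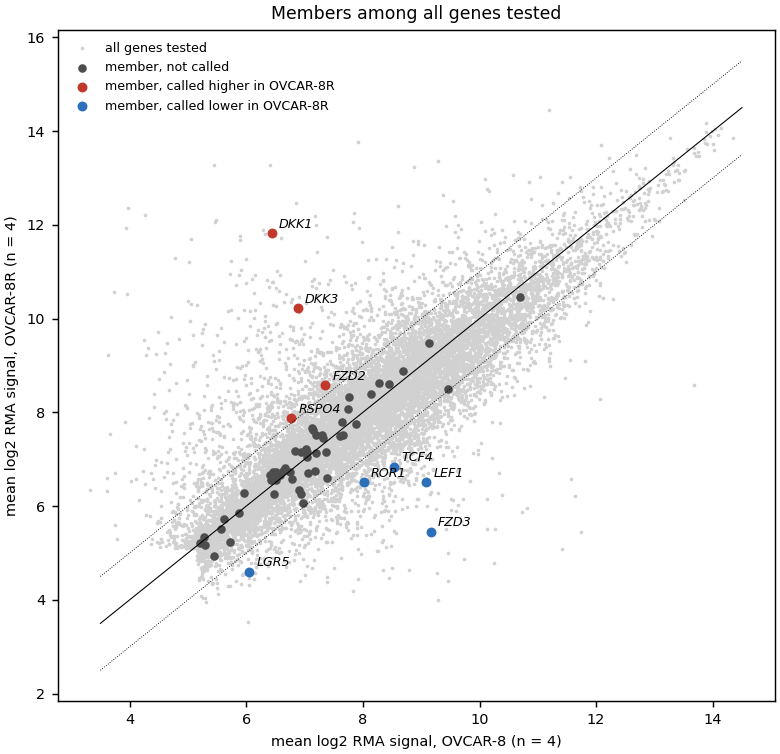
Mean log2 RMA signal in OVCAR-8R (vertical axis) and in OVCAR-8 (horizontal axis) for the 15931 genes tested, in gray, with the members in dark gray, red or blue. The solid line marks equal signal and the dotted lines a 2-fold difference, and DKK1 and DKK3 lie far above the line while FZD3 and LEF1 lie far below it.

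The 5′ flanks of DKK1, LEF1 and ROR1 are shown because these genes carried the largest rise among the antagonists and the largest falls among the nuclear factors and the co-receptors. Each is the 250 bases before the RefSeq start of the gene in GRCh38.p14, at chr10:52314031-52314280 on the plus strand for DKK1, at chr4:108166302-108166551 on the minus strand for LEF1 and at chr1:63773767-63774016 on the plus strand for ROR1. Capitals mark matches to CTTTGA, the core of the TCF/LEF recognition sequence, or to its reverse complement TCAAAG.
DKK1: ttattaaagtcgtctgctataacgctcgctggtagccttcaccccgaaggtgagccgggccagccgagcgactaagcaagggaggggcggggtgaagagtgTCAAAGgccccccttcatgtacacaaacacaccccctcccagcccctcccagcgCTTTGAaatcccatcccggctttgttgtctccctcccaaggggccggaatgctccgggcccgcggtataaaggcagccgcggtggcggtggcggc
LEF1: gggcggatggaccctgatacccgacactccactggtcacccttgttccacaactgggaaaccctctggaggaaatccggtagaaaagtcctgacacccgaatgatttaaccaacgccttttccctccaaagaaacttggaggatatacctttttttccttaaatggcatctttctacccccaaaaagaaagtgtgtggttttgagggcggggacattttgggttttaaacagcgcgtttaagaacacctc
ROR1: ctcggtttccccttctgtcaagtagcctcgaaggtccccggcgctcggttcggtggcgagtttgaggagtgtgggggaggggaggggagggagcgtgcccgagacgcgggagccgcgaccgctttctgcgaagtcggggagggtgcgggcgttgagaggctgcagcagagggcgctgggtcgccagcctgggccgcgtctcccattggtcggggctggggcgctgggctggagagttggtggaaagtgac
The DKK1 flank held 2 matches, 1 on each strand, and the LEF1 and ROR1 flanks held 0. Among 27305 flanks of the same length 11.4% held a match, and among 46 members with a flank in the RefSeq table DKK1 was the only one. The flanks of RSPO4 and TCF4, the other called members in that table, had no match. A match describes these letters and does not show a bound site.

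None of the 18 tested WNT ligand genes was called in OVCAR-8R spheroids by limma or by the methods' t-test, although 6 had an unadjusted p under 0.05 in limma and 5 an adjusted p under 0.05. Over all genes tested, limma called 16.7% and gave an adjusted p under 0.05 for 57.6%. The differences of the 18 genes ran from -0.48 for WNT5A to 0.48 for WNT3, with a median of 0.11 against -0.01 over all genes tested. Every one of their 95% intervals lay inside 2-fold, the lowest bound being -0.85 and the highest 0.67. In 9 of the 19 measured ligand genes both lines had a mean below the median signal of all probesets, where background can make a difference look smaller.

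WNT3, a ligand of β-catenin signalling, had log2 signals of 7.63, 7.49, 7.67 and 7.69 on the OVCAR-8R arrays and 7.26, 6.97, 7.15 and 7.19 on the OVCAR-8 arrays. The lines did not overlap, and the difference was 0.48 (SE 0.08, adjusted p = 0.000896). WNT9A and WNT7B also had small positive differences, of 0.32 (SE 0.08, adjusted p = 0.00869) and 0.32 (SE 0.11, adjusted p = 0.0356). The OVCAR-8R arrays gave 7.67, 7.46, 7.51 and 7.43 for WNT9A, above 7.23, 7.25, 7.27 and 7.06 on the OVCAR-8 arrays. WNT7B, a ligand of epithelia, was at 6.47, 6.11, 6.48 and 6.07 in OVCAR-8R and 5.93, 6.07, 5.94 and 5.92 in OVCAR-8, where the lowest resistant array and the highest parental one nearly met.

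WNT2B had log2 signals of 6.90, 6.66, 6.81 and 6.66 in OVCAR-8R and 7.25, 7.18, 7.18 and 7.11 in OVCAR-8, a separation of the lines with a difference of -0.43 (SE 0.08, adjusted p = 0.00114). WNT5A, the ligand best known for β-catenin-independent signalling and cell movement, was at 5.55, 5.24, 5.13 and 5.01 in OVCAR-8R and 6.02, 5.29, 5.70 and 5.84 in OVCAR-8. Its arrays overlapped, and its difference of -0.48 (SE 0.17, adjusted p = 0.0334) had the widest interval of the ligands, from -0.85 to -0.11. The related gene WNT5B had a difference of 0.13 (SE 0.07, adjusted p = 0.155).

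The other ligands lay closer to 0. WNT4, which takes part in the formation of the Müllerian duct, had a difference of 0.26 (SE 0.11, adjusted p = 0.0851), and WNT7A, which patterns that duct, one of 0.09 (SE 0.10). WNT10A and WNT3A had differences of 0.22 and 0.20, WNT1, WNT6, WNT16, WNT9B and WNT8B lay between 0.00 and 0.15, WNT8A and WNT11 were at -0.02 each, and WNT10B was at -0.22, where the sign of WNT8A and of WNT8B turned with the scaling. WNT2 was under the low-signal limit in both lines and was not tested, with means of 4.97 in OVCAR-8R against 5.09 in OVCAR-8. Ligand genes that neighbour each other in the genome had differences of -0.22 and 0.15 (WNT10B and WNT1), 0.48 and 0.06 (WNT3 and WNT9B) and 0.11 and 0.22 (WNT6 and WNT10A).

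The spread of the ligand genes within OVCAR-8R was not even across arrays. In 15 of the 19 genes both arrays 1 and 3 were above both arrays 2 and 4, and in 1 gene the reverse held, while over all genes tested each pattern was found in 33.8%. The split was not particular to the ligands. Over all 67 measured members, ligands included, the first pattern was found in 61.2% and the reverse in 19.4%. The first pattern was found in 7 of 10 secreted antagonist genes and 6 of 10 Frizzled genes, but in 0 of 4 nuclear factor genes. The gap between the mean of arrays 1 and 3 and that of arrays 2 and 4 had a median of 0.20 over the ligands and reached 0.44. With arrays 1 and 3 alone the median ligand difference from OVCAR-8 was 0.21 and 16 of 19 genes were above 0, and with arrays 2 and 4 alone it was 0.00 and 10 of 19 were above 0. The median over all genes tested moved in the same direction, from 0.04 with arrays 1 and 3 alone to -0.06 with arrays 2 and 4 alone. The 9 called members kept their calls with either pair of OVCAR-8R arrays, an alternative chosen after seeing the data, as were its uses below.

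**Figure D3:**
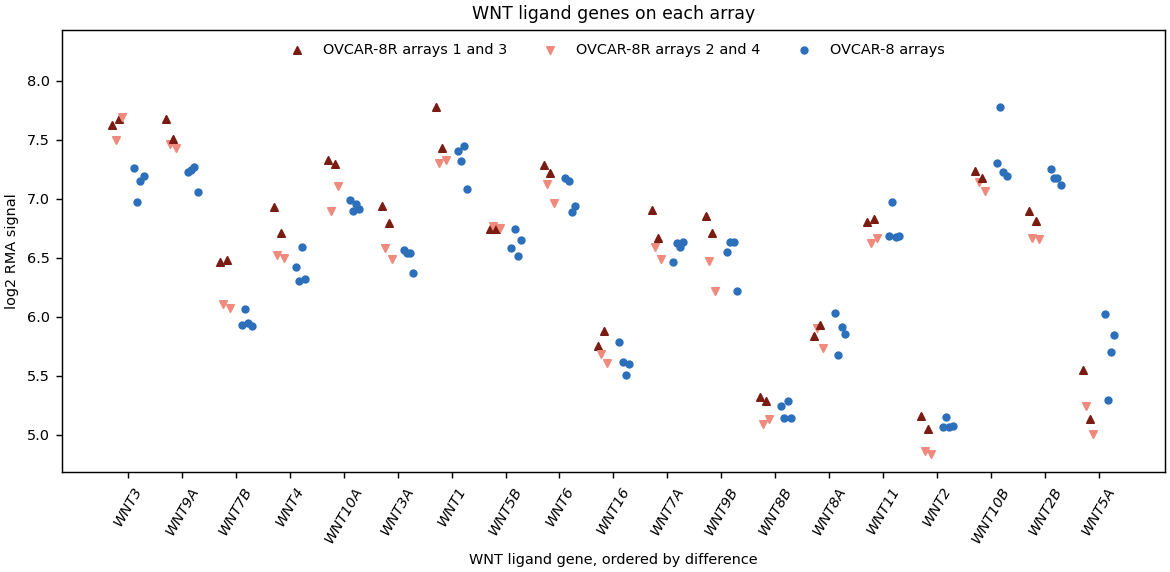
Log2 RMA signal of the 19 measured WNT ligand genes on each array, with OVCAR-8R arrays 1 and 3 as dark upward triangles, OVCAR-8R arrays 2 and 4 as light downward triangles and the 4 OVCAR-8 arrays as blue circles. In 15 genes both dark triangles lie above both light ones, and the median gap over the 19 genes is 0.20.

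Among the 10 Frizzled receptor genes, all tested, FZD2 was higher and FZD3 was lower in OVCAR-8R spheroids, and 8 were not called. The share called was 20%, beside 16.7% of all genes. FZD3, a receptor that guides axons and polarizes tissues, had log2 signals of 5.28, 5.60, 5.51 and 5.42 in OVCAR-8R and 9.04, 9.20, 9.18 and 9.23 in OVCAR-8. All 4 resistant arrays were far below the parental ones, and FZD3 fell by 3.71 on the log2 scale (SE 0.09, adjusted p = 1.07e-09). The fall was 13.1-fold, rank 124 of the 15931 genes by absolute difference. The OVCAR-8R mean of 5.45 lay below the median signal of all probesets, where background can make a difference look smaller. FZD2, which binds WNT5A among other ligands, was at 8.60, 8.58, 8.61 and 8.55 in OVCAR-8R and 7.28, 7.53, 7.42 and 7.18 in OVCAR-8. The resistant arrays lay close together above all parental ones, and the rise was 1.23 (SE 0.09, adjusted p = 1.44e-06), a call that ended with limma's treat test for more than 2-fold.

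FZD5, a receptor of intestinal and ocular epithelium, came next in size among the receptors. It was at 6.58, 6.68, 6.55 and 6.59 in OVCAR-8R and 7.25, 7.36, 7.48 and 7.47 in OVCAR-8, with a difference of -0.79 (SE 0.08, adjusted p = 1.37e-05) that stayed under 2-fold over its whole 95% interval, -0.96 to -0.62. FZD8 and FZD6 had positive differences of 0.57 (SE 0.09, adjusted p = 0.000355) and 0.34 (SE 0.09, adjusted p = 0.00780), with no overlap of the lines in either. FZD1, FZD4, FZD7, FZD9 and FZD10 lay between 0.02 and 0.21 and their arrays overlapped. FZD7, which is close in sequence to FZD1 and FZD2, was at 7.05 ± 0.03 in OVCAR-8R and 7.03 ± 0.13 in OVCAR-8 (SD, n = 4 each), with a 95% interval of the difference of -0.16 to 0.20 and a sign that turned with quantile scaling.

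Of the 5 co-receptor genes ROR1 was called lower, none was called higher, and LRP6 lay just under the threshold. The share called was 20%, beside 16.7% of all genes. ROR1, a receptor tyrosine kinase family member that binds WNT5A and is typical of embryonic tissue and some tumors, was at 6.68, 6.24, 6.64 and 6.46 in OVCAR-8R and 7.82, 7.97, 8.18 and 8.10 in OVCAR-8. The arrays were well apart, and ROR1 fell by 1.51 on the log2 scale (SE 0.12, adjusted p = 3.14e-06), a 2.85-fold difference. Its paralog ROR2 was at 6.82, 6.60, 6.80 and 6.68 in OVCAR-8R and 6.19, 6.76, 6.42 and 6.49 in OVCAR-8. These values overlapped, with a difference of 0.26 (SE 0.12, adjusted p = 0.0923).

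LRP6, the main co-receptor of β-catenin signalling, was at 8.35, 8.65, 8.37 and 8.61 in OVCAR-8R and 9.41, 9.26, 9.58 and 9.56 in OVCAR-8. The lines were separated by a difference of -0.96 (SE 0.10, adjusted p = 3.21e-05), whose 95% interval of -1.19 to -0.73 includes 2-fold. LRP6 was called lower without OVCAR-8R array 2 (-1.01), without OVCAR-8 array 2 (-1.02) and with OVCAR-8R arrays 1 and 3 alone (-1.10). LRP5, which acts in bone and in retinal vessels, had a difference of -0.68 (SE 0.08, adjusted p = 4.43e-05), with 6.17, 6.31, 6.33 and 6.23 in OVCAR-8R below 7.07, 6.92, 6.82 and 6.97 in OVCAR-8. RYK, a receptor with an inactive kinase domain, had a difference of -0.24 (SE 0.07, adjusted p = 0.0234). At any size of difference 4 of the 5 co-receptor genes were lower, beside 30% of all genes.

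Secreted antagonists held the largest rises of the pathway. Of 10 measured genes 7 were tested, and DKK1 and DKK3 were higher, none was lower and 5 were not called. The share called was 28.6%, beside 16.7% of all genes. DKK1, which binds LRP5 and LRP6 and blocks them, had log2 signals of 11.74, 11.92, 11.65 and 11.95 in OVCAR-8R and 6.37, 6.60, 6.37 and 6.41 in OVCAR-8. It rose by 5.38 (SE 0.09, adjusted p = 2.23e-10), a 41.6-fold difference and rank 26 of the 15931 genes by absolute difference. DKK3, a divergent family member that does not share the LRP blockade of DKK1, was at 10.25, 10.20, 10.30 and 10.12 in OVCAR-8R and 6.78, 6.95, 6.84 and 6.96 in OVCAR-8. The rise was 3.34 (SE 0.07, adjusted p = 8.46e-10), or 10.1-fold. The other DKK3 probeset was dim in both lines, with means of 5.05 in OVCAR-8R against 5.27 in OVCAR-8 and a difference of -0.22 (SE 0.14, adjusted p = 0.225), and the mean of both DKK3 probesets gave a smaller difference of 1.56, which was still called higher.

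DKK2 went the other way from DKK1 and DKK3, without reaching 2-fold. It was at 5.03, 4.91, 4.98 and 4.83 in OVCAR-8R, a mean in the lowest quartile of signal, and at 5.35, 5.29, 5.39 and 5.75 in OVCAR-8, with a difference of -0.51 (SE 0.11, adjusted p = 0.00281). SFRP1, a Frizzled-related protein that is often silenced in carcinomas, was at 6.53, 6.22, 6.39 and 6.21 in OVCAR-8R and 6.94, 6.92, 6.95 and 6.79 in OVCAR-8. Its arrays did not overlap, and the difference was -0.56 (SE 0.09, adjusted p = 0.000483). SFRP2 and SFRP5 had differences of 0.06 and 0.21, and NOTUM, an enzyme that strips the lipid from WNT proteins, one of 0.12, with overlapping arrays in each. DKK4, SFRP4 and WIF1 lay in the lowest quartile in both lines and were not tested, with means between 4.57 and 4.64 in OVCAR-8R and between 4.41 and 4.71 in OVCAR-8. The DKK receptor genes KREMEN1 and KREMEN2 had differences of -0.13 and 0.16 and neither was called by limma or the methods' t-test, nor had an unadjusted p under 0.05.

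**Figure D4:**
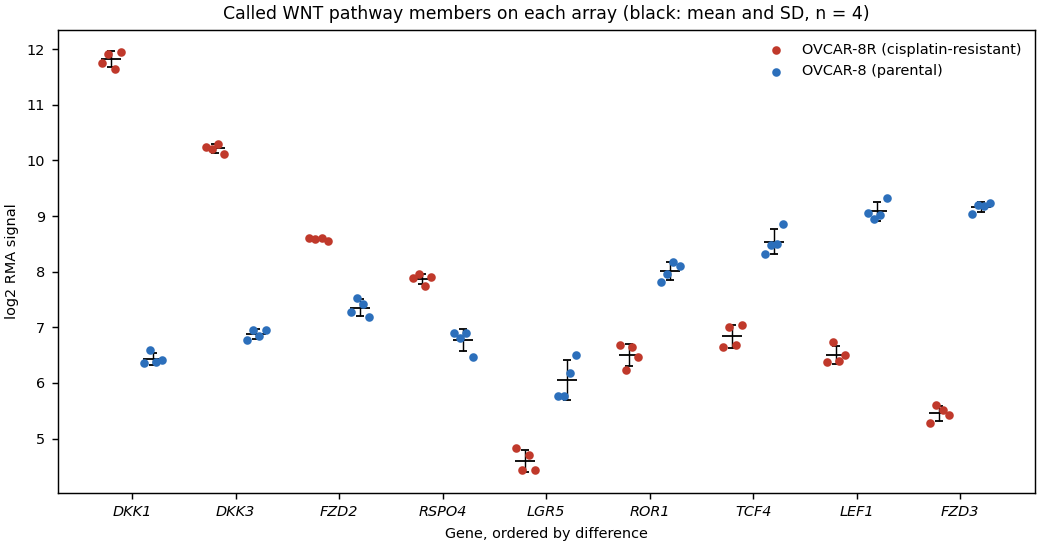
Log2 RMA signal of the 9 called members on each array, OVCAR-8R (red) left of OVCAR-8 (blue), with black marks for the line's mean and SD (n = 4), ordered by the difference. DKK1 and FZD3 at the ends differ by 5.38 and -3.71, and no gene shown has overlapping lines.

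In the R-spondin axis, which sets how many Frizzled receptors stay on the cell surface, 8 of 9 genes were tested, and RSPO4 was higher, LGR5 was lower and 6 were not called. The share called was 25%, beside 16.7% of all genes. RSPO4, an R-spondin needed for nail growth, had log2 signals of 7.89, 7.96, 7.74 and 7.90 in OVCAR-8R and 6.91, 6.81, 6.90 and 6.47 in OVCAR-8. The rise was 1.10 (SE 0.11, adjusted p = 1.48e-05). Its call ended with treat and without OVCAR-8 array 4, the lowest of its line, where the difference was 0.999. LGR5, a stem cell marker of intestine and of ovarian surface epithelium in mice, was at 4.82, 4.43, 4.71 and 4.44 in OVCAR-8R and 5.77, 5.76, 6.17 and 6.51 in OVCAR-8. It fell by 1.45 on the log2 scale (SE 0.17, adjusted p = 6.23e-05). The OVCAR-8R mean of 4.60 lay in the lowest quartile, near background, so the size is best read as a lower bound, and the call ended with treat.

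RNF43, the ligase that removes Frizzled receptors, was at 6.22, 6.02, 5.99 and 6.04 in OVCAR-8R and 6.97, 6.98, 7.06 and 6.92 in OVCAR-8. The lines were fully separated, but the difference of -0.91 (SE 0.08, adjusted p = 4.92e-06) was under 2-fold. Its partner ZNRF3 had a difference of -0.14 (SE 0.07, adjusted p = 0.139). LGR4, the R-spondin receptor with the broadest expression, had a difference of 0.21 (SE 0.09, adjusted p = 0.0910) and LGR6 one of -0.06. RSPO1, which acts in the development of the ovary, had a difference of -0.20 and RSPO2 one of -0.11, both with overlapping arrays, and RSPO3 was not tested, with means of 4.54 in OVCAR-8R against 4.73 in OVCAR-8.

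None of the 8 cytoplasmic components was called by limma or by the methods' t-test, beside 16.7% of all genes called by limma. In limma 4 had an unadjusted p under 0.05. The number was the same after adjustment in either test, beside 57.6% of all genes by limma. All 8 of the 95% intervals lay inside 2-fold, and the median absolute difference was 0.28, against 0.34 over all genes tested. AXIN1, the scaffold of the β-catenin destruction complex, was at 7.65, 7.56, 7.64 and 7.81 in OVCAR-8R and 7.19, 7.24, 7.09 and 6.99 in OVCAR-8, a difference of 0.54 (SE 0.08, adjusted p = 0.000419) with no overlap. The Dishevelled genes DVL2 and DVL3, whose proteins relay the signal from Frizzled, had differences of 0.34 (SE 0.07) and 0.37 (SE 0.07), also without overlap, and DVL1 one of 0.17 (SE 0.14). APC, the other scaffold of the complex, had a difference of -0.11 (SE 0.08, adjusted p = 0.317). The feedback inhibitor genes NKD1 and NKD2 had differences of -0.35 (SE 0.09, adjusted p = 0.0105) and -0.07 (SE 0.16).

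Of the 4 nuclear factor genes measured LEF1 and TCF4 were lower and TCF7L1 and TCF7L2 were not called. The share called was 50% of these few genes, beside 16.7% of all genes. LEF1, which carries β-catenin to DNA and is itself induced by WNT signals in many cells, was at 6.38, 6.74, 6.39 and 6.51 in OVCAR-8R and 9.05, 8.94, 9.03 and 9.32 in OVCAR-8. It fell by 2.58 on the log2 scale (SE 0.11, adjusted p = 5.37e-08), a 5.97-fold difference. TCF4, the E-box factor E2-2, was at 6.64, 7.0, 6.68 and 7.04 in OVCAR-8R and 8.32, 8.48, 8.50 and 8.86 in OVCAR-8, and fell by 1.70 (SE 0.14, adjusted p = 3.78e-06). Both falls were larger than any spread within a line. TCF7L2, the main β-catenin partner of the intestine, was at 8.25, 8.39, 8.31 and 8.60 in OVCAR-8R and 8.12, 8.03, 8.09 and 8.30 in OVCAR-8, with a difference of 0.25 (SE 0.10, adjusted p = 0.0512). TCF7L1, mostly a repressor, had a difference of 0.33 (SE 0.07, adjusted p = 0.00436) and separated lines.

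Members that are also used as readouts of β-catenin signalling did not share a direction. These were picked out after their values were seen. AXIN2, the most widely used of them, had log2 signals of 6.27, 6.07, 6.47 and 6.22 in OVCAR-8R and 6.35, 6.38, 6.65 and 6.50 in OVCAR-8, which overlapped, with a difference of -0.21 (SE 0.10, adjusted p = 0.112) and a 95% interval of -0.44 to 0.02. Besides AXIN2, the differences were 5.38 for DKK1, 0.12 for NOTUM, -0.14 for ZNRF3, -0.35 for NKD1, -0.91 for RNF43, -1.45 for LGR5 and -2.58 for LEF1. SP5, a direct target outside the member list, had a difference of 0.26 (SE 0.10, adjusted p = 0.0587).

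A further list held genes that process the ligands, modulate the signal outside the cell or at its surface, or carry it inside the cell. Among its 63 tested genes, 5 rose and 6 fell in OVCAR-8R, 17.5% against 16.7% of all genes, with a median difference of 0.03 against -0.01. That median was 0.09 with OVCAR-8R arrays 1 and 3 alone and -0.07 with arrays 2 and 4 alone, beside 0.04 and -0.06 over all genes tested. GSK3B, a kinase that marks β-catenin for degradation, was at 10.29, 10.39, 10.23 and 10.46 in OVCAR-8R and 8.88, 8.76, 9.05 and 9.06 in OVCAR-8, a rise of 1.41 (SE 0.09, adjusted p = 9.88e-07). Its paralog GSK3A went the other way under 2-fold, with a difference of -0.82 (SE 0.10, adjusted p = 8.73e-05). CTNNB1, the β-catenin gene, was at 12.08, 12.11, 12.07 and 12.13 in OVCAR-8R and 12.12, 12.18, 12.17 and 12.20 in OVCAR-8. The arrays overlapped, with a difference of -0.07 (SE 0.06, adjusted p = 0.372) that became 0.08 under cyclic loess scaling. WLS, which carries WNT proteins to the cell surface, had a difference of 0.01 (SE 0.09). IGFBP4, an IGF-binding protein that also binds LRP6 and FZD8, rose by 2.44, PPP2CB, a phosphatase subunit, by 1.68, and BCL9L, a β-catenin coactivator, by 1.43.

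SERPINF1, which encodes the secreted protein PEDF, had the largest fall in this list. It fell by 3.61 on the log2 scale (SE 0.12, adjusted p = 8.68e-09), with 5.70, 6.12, 5.99 and 6.27 in OVCAR-8R against 9.71, 9.64, 9.55 and 9.62 in OVCAR-8. GPC3, a heparan sulfate proteoglycan that can present WNT proteins, fell by 1.82 and CBY1, a β-catenin antagonist, by 1.46. The Groucho corepressor genes TLE4 and TLE3 fell by 1.37 and 1.36, calls that ended with treat, as did that of BCL9L. TLE5, a short antagonist of the same family, lay on the threshold at 1.0, and its call ended with treat, with median centring (0.993), with OVCAR-8R arrays 2 and 4 alone (0.931) and without OVCAR-8R array 1 (0.963) or 3 (0.992) or OVCAR-8 array 1 (0.998), 3 (0.987) or 4 (0.994).

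In the list for planar polarity and other β-catenin-independent signalling, 8 of 44 tested genes were higher and 3 were lower, 25% of the list beside 16.7% of all genes, and the median difference was 0.24. Here the OVCAR-8R arrays were split the other way than in the ligands, with both arrays 2 and 4 above both arrays 1 and 3 in 26 of 45 measured genes and the reverse in 7, beside 33.8% of all genes for each. With arrays 1 and 3 alone 6 genes were higher and 3 lower, at a median of 0.22, and with arrays 2 and 4 alone 8 were higher and 2 lower, at a median of 0.30. The medians over all genes tested were 0.04 and -0.06 with these pairs. PLCB4, a phospholipase C that raises calcium, was at 10.80, 11.11, 10.94 and 11.27 in OVCAR-8R and 7.40, 7.45, 7.56 and 7.56 in OVCAR-8, and rose by 3.54 (SE 0.11, adjusted p = 5.05e-09). CAMK2G, a calcium-dependent kinase, rose by 1.55, the polarity gene PRICKLE2 by 1.39, PLCB3 by 1.32 and the cadherin gene CELSR3 by 1.21. PRICKLE1, the paralog of PRICKLE2, moved the other way, by -1.20 (SE 0.10, adjusted p = 6.31e-06). PRKCB, a protein kinase C, fell by 1.39 and the cilium gene INVS by 1.05. The calls of CELSR3, PRICKLE1 and INVS ended with treat, and that of INVS also without OVCAR-8R array 1 (-0.985), without OVCAR-8 array 3 (-0.999) or with OVCAR-8R arrays 2 and 4 alone (-0.90). VANGL1, a core polarity gene, had a difference of 0.55 (SE 0.10, adjusted p = 0.000967). The list also holds calcium and kinase genes, such as PLCB4, PLCB3, CAMK2G and PRKCB, that are not particular to WNT signalling. It too was written with earlier results of these data known.

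Of 47 tested genes that are known as targets of β-catenin signalling in some tissue, 13 were higher and 5 were lower, 38.3% of the list beside 16.7% of all genes. The median difference was 0.05. It was 0.18 with OVCAR-8R arrays 1 and 3 alone and 0.01 with arrays 2 and 4 alone, beside 0.04 and -0.06 over all genes tested. The higher genes included the hyaluronan receptor gene CD44 (5.88), the tight junction gene CLDN1 (5.00), the BMP antagonist gene GREM1 (4.09), the adhesion gene L1CAM (3.30) and the AP-1 subunit gene FOSL1 (2.78), in log2 differences. CLDN1 was at 11.96, 12.42, 11.87 and 12.50 in OVCAR-8R and 6.98, 7.25, 7.23 and 7.28 in OVCAR-8. The lower genes were ID2, an inhibitor of E-box factors, FGF9, the drug exporter gene ABCB1, the adhesion gene NRCAM and TBX3. ID2 was at 6.06, 6.41, 5.93 and 6.23 in OVCAR-8R and 10.13, 10.15, 10.06 and 10.20 in OVCAR-8, and fell by 3.98 (SE 0.11, adjusted p = 2.39e-09). For FGF9 and NRCAM, which fell by 1.83 and 1.40, the OVCAR-8R means lay in the lowest quartile, and the call of TBX3, which fell by 1.34, ended with treat. MYC, a classic target in colon, had a difference of 0.61 (SE 0.10, adjusted p = 0.000559), under 2-fold. Many of these genes also respond to other pathways, and the list was written with earlier results of these data known.

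**Figure D5:**
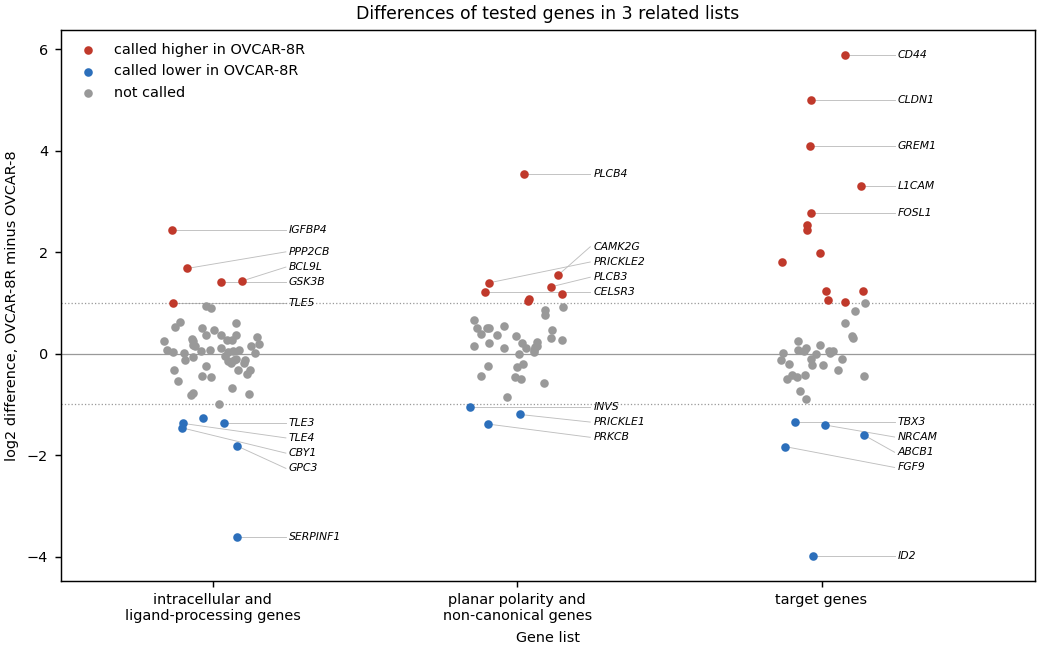
Log2 differences of OVCAR-8R minus OVCAR-8 for the tested genes of 3 related lists, with each point 1 gene and horizontal position within a list random. Genes called higher are red, genes called lower are blue, dotted lines mark 2-fold, and the named points run from ID2 at -3.98 to CD44 at 5.88.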

How the data were processed

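RNA from 4 OVCAR-8R and 4 OVCAR-8 spheroid samples was measured on Affymetrix Human Gene ST arrays. The authors computed RMA signals in Affymetrix Expression Console, and the deposited values are intensities on a linear scale, 1 per probeset and array. RMA equalizes the signal distribution of the arrays, so a global shift between the lines would not be seen. The plan assumed log2 values, and log2 was taken here first. The probesets' genome build was not given in the sources used here. Following the methods, probesets with a mean in the bottom 25% of both lines (under log2 5.11 in OVCAR-8R and 5.16 in OVCAR-8) were dropped, and 25628 of 33297 stayed. The annotation names 1 gene for 19460 probesets, several for 1754 and none for 12083, and a gene with several was represented by its brightest probeset on average. Lines were compared with limma 3.58.1 in R 4.3.3 (lmFit, eBayes), and p-values were adjusted over the probesets kept by Benjamini and Hochberg. Members and lists were chosen with earlier results of these data known. All members are named, and of each further list up to 5 called genes with the largest differences in each direction. CTNNB1, GSK3A, WLS, SP5, MYC, VANGL1 and the cell type markers named were chosen after their values were seen. The fit was tested on data simulated for the comparison of these lines (25628 probesets), where it found 97 of 100 true log2 changes of 1.5 and 99 of 100 of 2. The simulated noise was independent between arrays, unlike the measured deviations, which correlated within OVCAR-8R and between some arrays of the 2 lines. No change near 2-fold was simulated. The result therefore does not speak to calls near the threshold. An array has no read depth, so precision is limited by having 4 for each line. The methods' t-test was tried as an alternative beside other filters, thresholds and scalings, leaving out single arrays and a replicate block. Promoter sequences are from RefSeq (GRCh38.p14).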

Additional observations from a re-analysis of the deposited data

Results flagged for a closer look

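Among 136 sets of 4 arrays (68 probesets in both lines), 5 held an array far from the other three by Dixon's criterion, and chance gives about 1 in 20. In OVCAR-8R, DVL3 was lowest on array 3, at 8.55 against 8.66 on the nearest array. In OVCAR-8, array 2 was highest for WNT11 (6.97, nearest 6.68), WNT7B (6.07, nearest 5.94) and WNT2 (5.15, nearest 5.07), and array 4 was lowest for WNT3A (6.37, nearest 6.54). None of these genes was called.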

How the results depend on the processing

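The 9 calls among the members were kept without the filter on low signal, with the methods' t-test, an intensity trend, 3 rescalings, array weights, averaged probesets and the replicate block. LGR5 was not tested under the stricter filter, which also left 12 higher and 3 lower targets. At any size of difference, 13 members were higher and 15 lower, and 19 pathway genes were higher and 16 lower. Of the polarity genes 22 were higher and 10 lower, and of the targets 18 were higher and 14 lower. Over all genes tested 27.6% were higher and 30% lower, and 13043 probesets changed. Under treat 2 members were higher (DKK1 and DKK3) and 4 lower, and 3 pathway genes were higher and 3 lower. Polarity genes gave 4 higher and 1 lower, and targets 9 higher and 4 lower. Over the 15931 genes tested treat gave 832 higher and 643 lower. It changed 1891 probesets, against 3675 by the main threshold. Leaving out 1 array gave 3 to 4 higher and 5 to 6 lower members. The shared replicate numbers did not pair the arrays (correlations of deviations between -0.32 and 0.44, with 1 of 4 OVCAR-8R arrays closest to its own number), and the replicate block gave 4 higher and 5 lower members and 3681 probesets.

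Signs turned only for differences near 0 that were not called. Rescaling gave 0.019 (cyclic loess) and 0.00721 (quantile) for WNT8A, -0.00153 (quantile) for FZD7, -0.00603 (median centring) for WNT8B and 0.084 (cyclic loess) for CTNNB1, and array weights gave -0.033 for WNT8B. With OVCAR-8R arrays 2 and 4 alone, an alternative added after seeing the data, values were -0.046 (DVL1), -0.10 (FZD10), -0.060 (NOTUM), -0.033 (SFRP2), -0.037 (WNT7A), -0.094 (WNT8B) and -0.16 (WNT9B). With arrays 1 and 3 alone, also added then, they were -0.000153 (FZD7), 0.12 (NKD2), 0.032 (RSPO2), 0.060 (WNT11) and 0.016 (WNT8A). Leaving out 1 array gave ranges of -0.041 to 0.065 (FZD7), -0.20 to 0.036 (NKD2), -0.057 to 0.049 (WNT11), -0.081 to 0.037 (WNT8A), -0.035 to 0.040 (WNT8B) and -0.041 to 0.17 (WNT9B). The cause was not tested. Signal near background limits the untested genes and LGR5 and DKK2, whose OVCAR-8R means lay in the lowest quartile. It can also limit others, since 21 of the 67 measured members lay below the median signal in both lines.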
